A study of Rattus norvegicus with 6 samples.

Results

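The Armcx and Gprasp genes form a cluster on the rat X chromosome that encodes related proteins with armadillo repeats. The 9 genes Armcx1 to Armcx6 and Gprasp1 to Gprasp3 were taken as the family, and array probes were assigned to them through their RefSeq accessions. In all, 12 of the 61657 probes matched, covering 6 of the 9 genes: 3 probes each for Armcx1 and Armcx6, 2 each for Armcx2 and Gprasp3, and 1 each for Armcx3 and Gprasp1. No probe was matched to Armcx4, Armcx5 or Gprasp2, which are not analysed here. The family drew attention because Gprasp3 and Armcx6 were among the genes with the smallest p on the lower side in these same arrays, so their differences between the groups are given as a description, with no test.

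Renal cortex RNA came from 6 male Sprague-Dawley rats (Crl:CD(SD)), bought at an age of 5 weeks. The phenolphthalein group was 3 rats that received the pH indicator and withdrawn laxative phenolphthalein at 1000 mg/kg/day for 4 weeks, and the vehicle group was 3 rats given corn oil for 4 weeks. Total RNA of each rat was labelled with Cy3 and hybridised to its own Agilent array, and nothing was deleted or transferred genetically in either group. A value below is the log2 of a probe's intensity relative to the 75th percentile of its array, so 0 is that percentile and each unit is a doubling. Values of different probes are not comparable as levels, since each probe hybridises in its own way.

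Proteins of this family arose from the autosomal gene Armc10 in placental mammals and are known mostly from the nervous system. Armcx1 and Armcx3 sit on the mitochondrial outer membrane, and in mouse neurons they act with the Miro GTPases and Trak adaptors that move mitochondria along microtubules. Gprasp1 and Gprasp2 bind the tails of G protein-coupled receptors, and Gprasp1 sorts opioid and dopamine receptors to lysosomes after their uptake. Gprasp3, earlier called Bhlhb9, was described as a survival factor of neuronal cells.

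The arrays were alike in quality. Between 64.8% and 72.1% of the probes per array were well above background, the scanner software's own call of a signal, and 0 probes were saturated. The 3 slides each held a single group, with all vehicle arrays together, phenolphthalein replicates 2 and 3 together and phenolphthalein replicate 1 by itself, so slide and group cannot be told apart. Some markers of the labelled tissue were bright. The phosphate transporter Slc34a1 of the proximal tubule averaged 7.88 in phenolphthalein and 7.99 in vehicle. Umod of the thick ascending limb averaged 8.82 in phenolphthalein and 8.76 in vehicle. The other tested markers of the thick ascending limb were not bright. Cldn16 averaged -0.40 in phenolphthalein and -0.52 in vehicle, and Ptger3 averaged -1.90 in phenolphthalein and -1.95 in vehicle. Over all 43473 tested probes, those called above background on 3 or more of the 6 arrays, 0 differed at an adjusted p under 0.05 (limma, smallest adjusted p = 0.221). At an unadjusted p under 0.05, 8.82% of them differed, 1701 higher (3.91%) and 2135 lower (4.91%) with phenolphthalein. The median difference of all tested probes was -0.01.

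Parts of the family share stretches of promoter sequence. RefSeq promoter windows of the GRCr8 build, 250 bases before to 50 after a start site, were at hand for 7 of the 9 family genes, all but Armcx3 and Gprasp2. Armcx6, Armcx1, Armcx2 and Armcx4 share a palindrome with an E-box at its core, TCACGTGA, written in capitals below together with a TGACG or TGATG a few bases before it. The same pair stands in promoters of the Bex and Tceal genes, small X-linked genes of the same chromosome region, of which Tceal8, Tceal5 and Bex3 are shown. These stretches are printed because they are the element that joins a gene with a low signal after phenolphthalein, Armcx6, to relatives with other values.
Armcx6: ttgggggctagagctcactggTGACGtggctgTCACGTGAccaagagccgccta
Armcx1: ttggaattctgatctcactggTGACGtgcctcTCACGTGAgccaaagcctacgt
Armcx2: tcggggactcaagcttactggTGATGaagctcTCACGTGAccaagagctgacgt
Armcx4: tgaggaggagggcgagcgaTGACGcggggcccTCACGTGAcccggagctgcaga
Tceal8: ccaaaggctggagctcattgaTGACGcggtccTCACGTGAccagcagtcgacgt
Tceal5: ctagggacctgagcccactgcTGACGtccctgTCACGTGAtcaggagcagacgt
Bex3: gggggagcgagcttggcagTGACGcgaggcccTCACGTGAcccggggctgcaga

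These stretches lie at chrX:102225242-102225295 on the minus strand for Armcx6, chrX:102192114-102192167 on the plus strand for Armcx1, chrX:102278747-102278800 on the minus strand for Armcx2 and chrX:102153873-102153926 on the plus strand for Armcx4. Those of the relatives lie at chrX:103965059-103965112 on the minus strand for Tceal8, chrX:103998944-103998997 on the minus strand for Tceal5 and chrX:104064815-104064868 on the plus strand for Bex3. All are on chromosome X of GRCr8 and are written from 5′ to 3′ along the gene. Counted over genes, TCACGTGA was found in 4 of the 7 family genes with a promoter and in 7 of 8 Bex and Tceal genes, against 0.896% of all 27457 genes. TGANG, any 6 bases and then the palindrome was found in Armcx1, Armcx2 and Armcx6, in 4 Bex and Tceal genes and in 13 genes in all. With 8 bases in between, the pair was found in Armcx4, Bex3 and Tceal1, and in 5 genes in all. Both strands were searched, and these 3 patterns were read off the promoters themselves, so their counts are a description. The longer patterns contain the palindrome and the palindrome contains CACGTG.

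**Figure D1:**
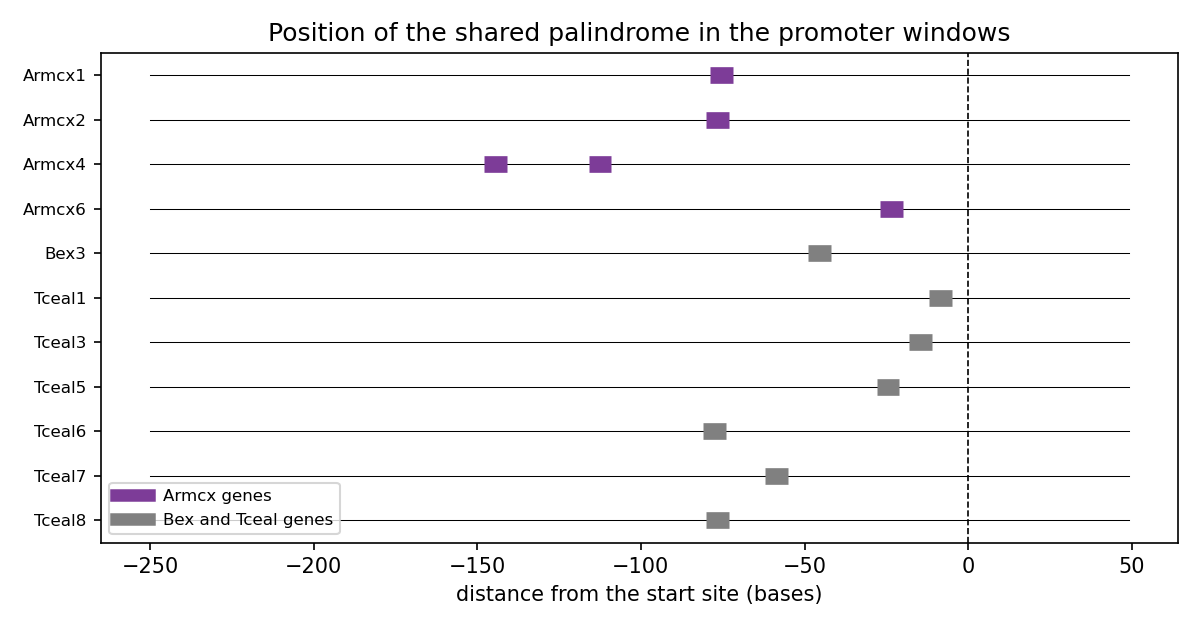
Position of the palindrome TCACGTGA (bars) in the promoter windows of 4 Armcx genes (purple) and 7 Bex and Tceal genes (grey), in bases from the start site, with the searched window as a thin line. Each bar lies upstream of the start site, and Armcx4 has 2 bars because 1 palindrome lies in the windows of 2 of its start sites.

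Common promoter words were searched on both strands as well. CACGTG, the E-box, was found in 4 of the 7 family genes, against 7.08% of all genes. TGACG, which opens the pair in Armcx1, Armcx4 and Armcx6, was found in 5, with Armcx2 and Armcx5 added, against 23.0% of all genes. The GC box GGGCGG was found in 3 family genes (36.0% of all genes) and CCAAT in 2 (39.6%). The full cAMP response element TGACGTCA was found in 0 of the 7 (2.00% of all genes), and so was the palindromic motif of the factor NRF1 (0.954%).

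Gprasp1 and Gprasp3 have promoters without the palindrome but with a long stretch in common. The best local alignment of their windows held 221 identical bases in 243 columns, an identity of 90.9%. Only the first window of each gene was aligned, which for Armcx4 does not hold the palindrome. Among these windows of the family, the next longest alignment, between Armcx1 and Armcx6, held 64 identical bases in 81 columns. The part of the shared stretch before each start site is printed because this gene pair had opposite signs of difference in the arrays. Capitals mark bases that lie in a run of at least 12 bases found letter for letter anywhere in the other promoter window, so neighbouring or overlapping runs can join into 1 longer capital stretch.
Gprasp1: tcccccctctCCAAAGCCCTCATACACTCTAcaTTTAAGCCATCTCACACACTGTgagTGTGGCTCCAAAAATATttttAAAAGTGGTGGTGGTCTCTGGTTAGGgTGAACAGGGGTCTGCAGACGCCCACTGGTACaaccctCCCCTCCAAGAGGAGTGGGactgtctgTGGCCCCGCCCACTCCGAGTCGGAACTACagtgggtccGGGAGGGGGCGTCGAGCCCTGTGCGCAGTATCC
Gprasp3: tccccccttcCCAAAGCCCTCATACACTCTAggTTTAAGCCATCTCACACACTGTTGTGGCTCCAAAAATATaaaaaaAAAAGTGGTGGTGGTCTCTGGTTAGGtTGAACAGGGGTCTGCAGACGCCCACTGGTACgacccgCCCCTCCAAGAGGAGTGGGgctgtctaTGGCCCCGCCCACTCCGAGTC

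The first stretch lies at chrX:103556243-103556483 on the plus strand for Gprasp1 and the second at chrX:103639176-103639365 on the plus strand for Gprasp3, both in GRCr8. The longest single run common to both promoters has 31 bases and was found in 0 of the other 33467 promoter windows.

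On this scale Armcx6 had the largest difference of the family, an order that turned with another background correction. Its brightest probe, A_64_P136432, was at -4.07, -3.85 and -3.78 in phenolphthalein replicates 1, 2 and 3, against -3.04, -2.98 and -2.84 in vehicle replicates 1, 2 and 3. All phenolphthalein arrays lay below all vehicle arrays, with a gap of 0.74 between the nearest values. The means were -3.90 ± 0.15 in phenolphthalein and -2.95 ± 0.10 in vehicle (SD, n = 3 each), a difference of -0.95 (limma SE 0.13), or 0.518 times the vehicle signal.

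The other probes of Armcx6 had the same order. A_44_P225576 was at -4.46, -4.16 and -3.87 in phenolphthalein and at -3.37, -3.01 and -3.24 in vehicle, a difference of -0.96 (SE 0.19). A_44_P475958, the dimmest, was at -5.61, -5.07 and -5.06 in phenolphthalein and at -4.30, -4.29 and -4.07 in vehicle, a difference of -1.03 (SE 0.21). In each of the 3 probes the groups did not overlap and phenolphthalein replicate 1 was the lowest array. The 3 probes measure the same RNA of the same rats, so they are repeat readings and add no animals.

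These probes were dim, which matters for the size of the difference. As deposited, the processed intensity of the brightest probe was 62.4, 67.2 and 67.1 in phenolphthalein, against 120.4, 129.6 and 133.3 in vehicle, where the 75th percentile of an array lay between 919 and 1050. With normexp background correction at an offset of 50 and quantile normalization, the 3 differences shrank to -0.53, -0.42 and -0.33. With the offset set to 0 they were -0.77, -0.69 and -0.62. With the offset of 50 the tested Gprasp3 probe, at -0.63, had a larger difference than all 3 Armcx6 probes, and with no offset, at -0.68, a larger one than the dimmest of them. The sign of Armcx6 stayed negative in both settings, and each probe was well above background on all 6 arrays.

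Gprasp3 was the second gene with a clear gap. Probe A_44_P249704 was at -1.12, -0.98 and -0.99 in phenolphthalein, against -0.26, -0.32 and -0.44 in vehicle. No phenolphthalein array came within 0.54 of a vehicle array. The means were -1.03 ± 0.08 in phenolphthalein and -0.34 ± 0.09 in vehicle (SD, n = 3 each), a difference of -0.69 (SE 0.08), or 0.619 times the vehicle signal. The background method moved this probe little. The other Gprasp3 probe, A_64_P054466, was not well above background on any array, with intensities of 2.72 to 6.96 in phenolphthalein and 4.18 to 11.4 in vehicle, so it gives no fold.

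Gprasp1, the receptor-sorting protein, had the opposite sign. Its probe was at -1.68, -1.70 and -1.55 in phenolphthalein, against -1.88, -2.11 and -1.90 in vehicle, so every phenolphthalein array was above every vehicle array. The gap between the groups was 0.18, and the difference was 0.32 (SE 0.10), or 1.25 times the vehicle signal. With 1 probe, the array gives no second reading of Gprasp1. The deposited files used here hold no probe sequences, so signal shared between these related genes was not tested.

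Armcx2 had smaller differences that depended on the probe for their overlap. Its brighter probe was at -1.06, -1.01 and -1.04 in phenolphthalein, against -0.87, -0.68 and -0.76 in vehicle, a difference of -0.27 (SE 0.08) with no overlap and a gap of 0.14. Its dimmer probe was at -2.96, -2.50 and -2.86 in phenolphthalein, against -2.52, -2.35 and -2.36 in vehicle, a difference of -0.37 (SE 0.14). Here phenolphthalein replicate 2 reached just above vehicle replicate 1, so the groups overlapped.

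Armcx1 and Armcx3, the mitochondrial trafficking members, had overlapping groups in every probe. The brightest Armcx1 probe was at -1.12, -0.92 and -1.26 in phenolphthalein, against -1.09, -0.84 and -0.98 in vehicle, a difference of -0.13 (SE 0.12). Its other probes differed by 0.08 (SE 0.10) and -0.12 (SE 0.17), so the 3 probes did not share a sign. Armcx3 was at -2.34, -2.28 and -2.84 in phenolphthalein, against -2.58, -2.34 and -2.46 in vehicle, a difference of -0.03 (SE 0.17). Armcx3 is the gene next to Armcx6 on the chromosome, and phenolphthalein replicate 3 lay below all its vehicle values while replicates 1 and 2 lay above them. Without phenolphthalein replicate 3 its difference was 0.15, and without vehicle replicate 2 it was 0.03. Without phenolphthalein replicate 3 the difference of the Armcx1 probe A_44_P145891 was 0.0038.

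**Figure D2:**
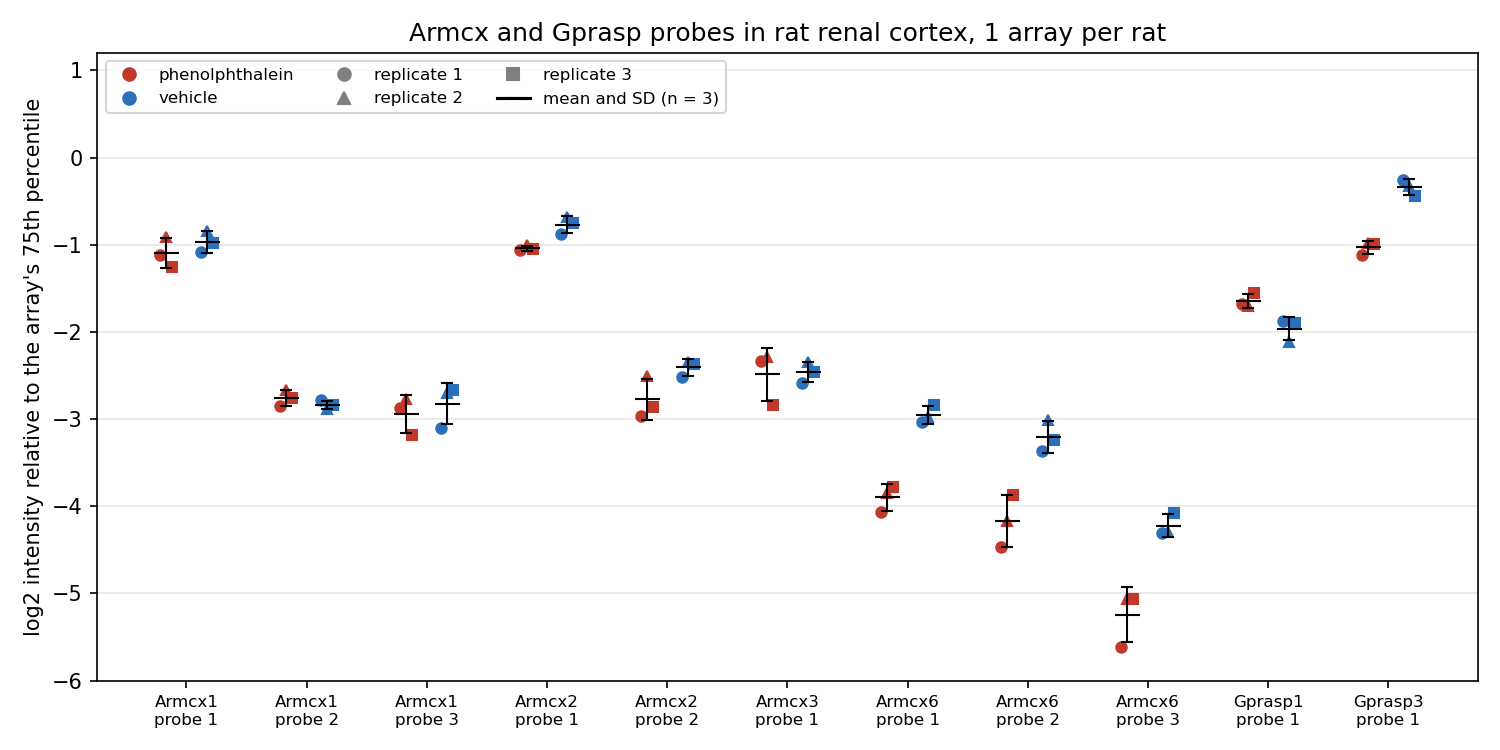
Log2 intensity relative to the array's 75th percentile for the 11 tested Armcx and Gprasp probes, with phenolphthalein (red) left of vehicle (blue), a symbol per replicate and the mean with its SD (n = 3) in black. The 3 Armcx6 probes and the Gprasp3 probe lie lower in phenolphthalein with no overlap, Gprasp1 lies higher, and all Armcx1 and Armcx3 probes overlap.

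Counted over the family, 9 of the 11 tested probes had a lower mean with phenolphthalein (53.5% of all tested probes did), with a median difference of -0.27. In 5 of them the groups did not overlap on the lower side (8.98% of all tested probes) and in 1 on the higher side (6.63%). By the brightest probe of each gene, 5 of 6 genes had a lower mean (55.6% of named genes did), 3 of 6 genes were lower with no overlap (10.1% of 12269 named genes) and 1 was higher (6.28%). Since the family was picked from this comparison, nothing is read from these shares. Averaged over the 11 probes and centred on the vehicle mean, the arrays stood at -0.47, -0.27 and -0.39 in phenolphthalein replicates 1, 2 and 3, against -0.08, 0.04 and 0.04 in vehicle replicates 1, 2 and 3. Phenolphthalein replicate 1 held the lowest value in 6 of the 11 probes.

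The slides bear on this order. For the 3 Armcx6 probes, phenolphthalein replicate 1, alone on its slide, differed from the vehicle mean by -1.12, -1.26 and -1.39, and the mean of replicates 2 and 3, on the other slide, by -0.86, -0.81 and -0.84. For Gprasp3 these values were -0.78 and -0.65. The lower signal was thus present on both phenolphthalein slides, while the vehicle slide has no second slide to compare with.

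The genes around the family on the X chromosome were measured in the same fit and were not picked for their values. The order along the chromosome is Armcx4, Armcx1, Armcx6, Armcx3 and Armcx2, then 21 other genes, then Armcx5, Gprasp1, Gprasp2 and Gprasp3. Of 55 other genes within this span or up to 15 genes outside it, 19 had a probe and 11 were tested. None passed the threshold over all probes (limma, 0 of 11, smallest adjusted p = 0.457). At an unadjusted p under 0.05, 2 were lower (6.01% of named genes are) and 1 was higher (4.09% are). The median over the 11 was -0.04, against -0.02 for all named genes.

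The 4 neighbours with the smallest p included 3 on the Armcx flank and 1 on the Gprasp flank. Timm8a1, a chaperone of mitochondrial import, was at 2.19, 2.07 and 2.29 in phenolphthalein, against 2.48, 2.52 and 2.39 in vehicle, a difference of -0.28 (SE 0.08, limma adjusted p = 0.457). Its other tested probe had a positive difference. Tmem35a, a membrane chaperone of nicotinic receptors, differed by -0.42 (SE 0.14, limma adjusted p = 0.515). Btk, a kinase of B cells and myeloid cells, differed by -0.39 (SE 0.19, limma adjusted p = 0.613). Bex4, on the far side of Gprasp3, differed by 0.53 (SE 0.22, limma adjusted p = 0.557). None of these 4 genes passed the test. Closer to Armcx4, Hnrnph2, an RNA-binding protein, was at -0.01, and the lysosomal enzyme gene Gla was at -0.09.

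**Figure D3:**
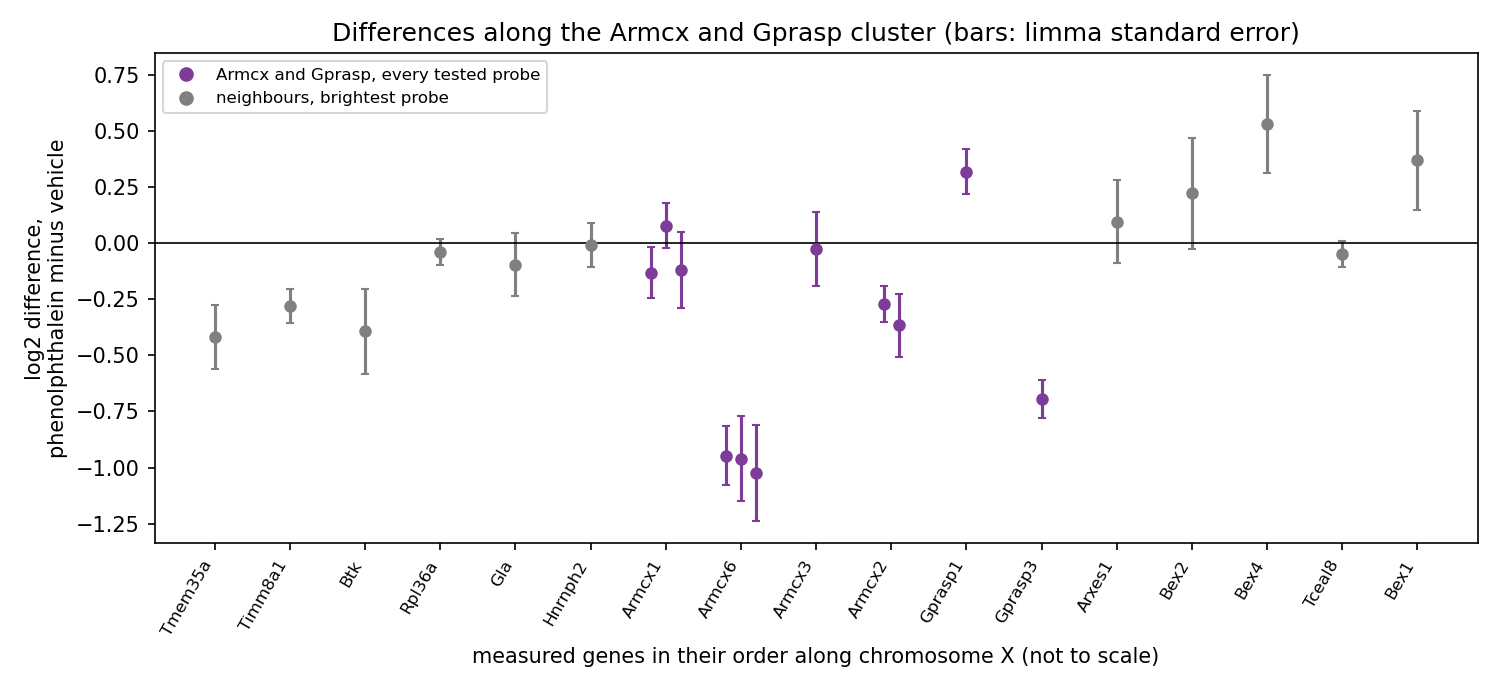
Log2 difference, phenolphthalein minus vehicle, with its limma standard error for the measured genes in their order along the X chromosome, not to scale. The family (purple, every tested probe) reaches from -1.03 in Armcx6 to 0.32 in Gprasp1, and the neighbours (grey, brightest probe) from -0.42 to 0.53.

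The Bex and Tceal relatives had differences of both signs. This list overlaps the neighbours above, since Bex1, Bex2, Bex4 and Tceal8 were tested in both. Of 14 listed genes 7 were tested, 0 passed the threshold (limma, smallest adjusted p = 0.557) and the median was -0.05. At an unadjusted p under 0.05, 0 were lower (6.01% of named genes are) and 1, Bex4, was higher (4.09% are). Of the 7 tested genes, Tceal8, Bex3 and Tceal1 were found to hold the palindrome of Armcx6. By the brightest probe, all 3 had small negative differences, each smaller than its SE. Tceal8 was at 2.92, 2.96 and 3.05 in phenolphthalein, against 2.99, 3.02 and 3.05 in vehicle, a difference of -0.05 (SE 0.06). Bex3, which binds the neurotrophin receptor p75, differed by -0.09 (SE 0.10), and Tceal1 by -0.05 (SE 0.09). The other tested probe of Tceal1 had a positive difference. Of the others, Bex1 differed by 0.37 (SE 0.22) and Tceal9 by -0.25 (SE 0.22). None of the 7 reached the size of the Armcx6 difference on the lower side, where the lowest was -0.25.

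Partners of the family in mitochondrial transport were also measured. Of 20 listed genes 16 were tested, 0 passed (limma, smallest adjusted p = 0.487), and the median was 0.04. At an unadjusted p under 0.05, 0 were lower (6.01% of named genes are) and 2 were higher (4.09% are). The 2 were Trak1, an adaptor between mitochondria and motors, at 0.28 (SE 0.08, limma adjusted p = 0.487), and Kif5b, the motor itself, at 0.16 (SE 0.05, limma adjusted p = 0.487). Trak2, the adaptor bound by Armcx3, was at 4.75, 4.57 and 4.76 in phenolphthalein, against 4.62, 4.49 and 4.43 in vehicle, a difference of 0.18 (SE 0.08, limma adjusted p = 0.572). The Miro genes Rhot1 and Rhot2 differed by -0.02 and -0.06, and Armc10, the autosomal relative, by 0.10 (SE 0.09).

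Genes of receptor sorting to lysosomes stand beside Gprasp1 in the same way. Of 22 listed genes 20 were tested, 0 passed (limma, smallest adjusted p = 0.406), and the median was -0.05. The mean was lower in 15 of the 20 (55.6% of named genes). In 4 of the 20 the groups did not overlap on the lower side (10.1% of named genes) and in 1 on the higher side (6.28%). At an unadjusted p under 0.05, 0 were lower and 1 was higher, against 6.01% lower and 4.09% higher among all named genes, so the count on the higher side was near the background. That gene was Vps36, a subunit of the ESCRT-II complex, at 2.86, 2.72 and 2.85 in phenolphthalein, against 2.48, 2.50 and 2.41 in vehicle, a difference of 0.35 (SE 0.06, limma adjusted p = 0.406). Its other tested probe had a negative difference. The ATPase Vps4a differed by -0.15 (SE 0.07), the arrestin Arrb2 by -0.21 (SE 0.10), Vps28 by -0.10 (SE 0.05), and Dtnbp1, the Gprasp1 partner dysbindin, by -0.02 (SE 0.07). For Arrb2 too, the other tested probe had the opposite sign.

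Markers of macrophages and lymphocytes were low in the same arrays as Armcx6 and Gprasp3. Of 7 tested macrophage markers 6 had lower means, 5 of them at an unadjusted p under 0.05, while Cd14 was higher at that level, and 0 passed at an adjusted one (limma, smallest adjusted p = 0.406). Over all named genes, 55.6% had a lower mean, 6.01% were lower at that unadjusted p and 4.09% were higher. Averaged over the markers and centred on the vehicle mean, they lay between -0.44 and -0.17 in phenolphthalein and between -0.13 and 0.15 in vehicle. Their summed level, in units of the array's 75th percentile, was 23.4 to 28.8 in phenolphthalein and 32.5 to 37.8 in vehicle. All 5 tested T and B cell markers had lower means, with a summed level of 0.971 to 1.18 in phenolphthalein and 1.31 to 1.74 in vehicle. Their part in the lower Armcx6 and Gprasp3 signals was not tested. In whole tissue, fewer cells of a type and less RNA per cell cannot be told apart.

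Markers of the cells in which this family is best known were measured too. Of 11 nerve and Schwann cell markers, Nefl, Dbh and Snap25 were too dim to test, 4 had lower means and 4 higher ones, with a summed level of 3.16 to 3.80 in phenolphthalein and 3.44 to 3.79 in vehicle. Fibroblast, pericyte and smooth muscle markers had 10 of 13 higher means and a median of 0.07. At an unadjusted p under 0.05, 3 were higher (Lum at 1.56, Dcn at 0.84 and Myh11 at 0.36) and 2 lower (Col1a1 at -0.37 and Col3a1 at -0.19). Lum was dim, at -6.13 to -5.66 in phenolphthalein and -8.23 to -7.08 in vehicle. Its vehicle values lay within the range of the untested Gprasp3 probe, -8.47 to -6.39, so the size of its difference is uncertain. The size for Dcn rested largely on vehicle replicate 3, at 1.84, against 3.23 and 3.13 in vehicle replicates 1 and 2. The brightest Myh11 probe was at 0.30 in phenolphthalein replicate 1, against -0.18 and -0.21 in phenolphthalein replicates 2 and 3. Of the 4 tested Myh11 probes, 1 had a negative difference. Endothelial markers had a median of 0.02 over 8 and podocyte markers of 0.02 over 6, of which Podxl was higher at that p, at 0.29. Of the nerve and endothelial markers, 0 had an unadjusted p under 0.05, and 0 markers of these 4 lists passed at an adjusted one (limma, smallest adjusted p = 0.406). Among all named genes, a lower mean was found in 55.6%. At an unadjusted p under 0.05, 6.01% of named genes were lower and 4.09% higher.

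The genes whose values ran closest to those of Armcx6 and Gprasp3 over the 6 arrays were found by root mean square distance, after centring each gene on its own mean, among 12263 named genes outside the family. For Armcx6 they were Adgre4, an adhesion receptor of myeloid cells (distance 0.0956 on the log2 scale), the olfactory receptor gene Or4x11 (0.106) and the myeloid tyrosine kinase gene Fgr (0.127). For Gprasp3 they were B3galt2, a galactosyltransferase (0.0755), Cfp, the complement regulator properdin (0.0818), and the olfactory receptor gene Or8s5 (0.0845). Adgre4 was at -5.48, -5.31 and -5.38 in phenolphthalein, against -4.68, -4.57 and -4.52 in vehicle. Or4x11 was at -4.81, -4.44 and -4.47 in phenolphthalein, against -3.83, -3.85 and -3.74 in vehicle. Fgr was at -3.17, -2.83 and -2.94 in phenolphthalein, against -2.14, -2.03 and -2.22 in vehicle. B3galt2 was at -2.66, -2.43 and -2.49 in phenolphthalein, against -1.92, -1.86 and -1.87 in vehicle. Cfp was at -2.08, -1.87 and -2.03 in phenolphthalein, against -1.38, -1.37 and -1.36 in vehicle. Or8s5 was at -5.37, -5.09 and -5.37 in phenolphthalein, against -4.56, -4.58 and -4.74 in vehicle. Adgre4, Or4x11 and Or8s5 were dim, so the size of their differences is uncertain. Over 6 arrays in 2 groups, closeness mainly means a gap of like size, and with this many genes some come close by their number.

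**Figure D4:**
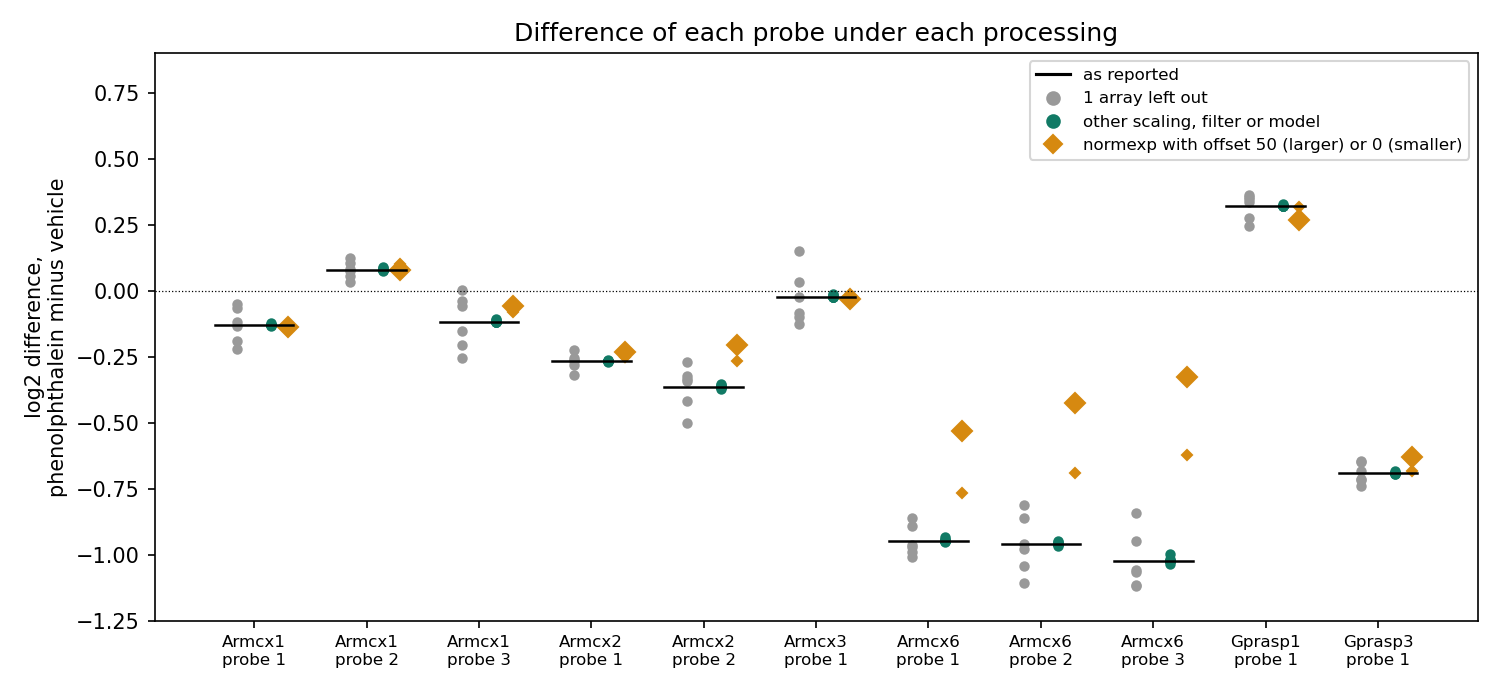
Log2 difference, phenolphthalein minus vehicle, of each tested probe as reported (black line), with 1 array left out (grey), under other scalings, filters and models (green), and with normexp (diamonds, larger for an offset of 50 and smaller for 0). The Armcx6 differences shrink with normexp to as little as -0.33, Gprasp3 stays between -0.74 and -0.63, and Gprasp1 stays between 0.24 and 0.36.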

How the data were processed

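Single-colour Agilent arrays of 3 phenolphthalein and 3 vehicle rats were used. Per the file headers, Agilent Feature Extraction 10.7.1.1 made the processed intensity of each deposited scanner file by subtracting background and spatial trend. The authors' deposited value table holds a linear ratio whose making is not given in the sources used here. Each of its 6 columns matched the scanner values divided by the array's 75th percentile, in each case of another replicate of the same group (SD of the log2 difference 0.000435 to 0.000471 over 39257 probes). Groups are thus the same in both sources, while replicate numbers within a group are uncertain. The column medians lay between 0.102 and 0.106, and 0 columns were left out.

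Each processed intensity was divided by the 75th percentile of non-control probes on its array and put on the log2 scale, with outlier spots (2 to 14 per array) set to missing. RefSeq accessions, without versions, named 27460 of 61657 probes through a GRCr8 gene table, and 34197 had no name. The array design is annotated on rn4, and no probe coordinates are given. The coordinates printed above are those of the promoter stretches in GRCr8. Every probe well above background on at least 3 arrays was kept apart and fitted with limma 3.58.1 in R 4.3.3 (intensity trend, Benjamini-Hochberg over all tested probes, threshold 0.05, two-sided). For lists, the brightest tested probe stood for a gene. The fit was tested on simulated data. For normexp, the median spot signal was used, with the median local background.

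The members and lists were chosen with earlier results of these data known. Named are every family member, up to 4 genes with the smallest p of each list with the fixed partners Armc10, Rhot1, Rhot2 and Trak2, and the 3 closest genes to Armcx6 and Gprasp3. Hnrnph2, Gla, Tceal8, Tceal1, Dtnbp1 and the cell markers Cd14, Lum, Dcn, Myh11, Col1a1, Col3a1, Podxl, Nefl, Dbh and Snap25 were added after their values were seen. The same holds for Cldn16 and Ptger3. With 3 rats a group, precision is set by the spread between rats. Promoters were aligned with Biopython 1.88, with no protein sequences used here.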

Additional observations from a re-analysis of the deposited data

How the results depend on the processing

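Of 188 differences of single family probes under 17 alternatives, 185 kept their sign. The 3 that changed were Armcx3 without phenolphthalein replicate 3 or without vehicle replicate 2, and the Armcx1 probe A_44_P145891 without phenolphthalein replicate 3. The 6 that moved by more than the spread between replicates were the 3 Armcx6 probes with normexp at both offsets. Normexp with no offset was chosen after seeing the data. The median over the 11 tested family probes, -0.27, lay between -0.32 and -0.22 with 1 array left out and was -0.21 with normexp at an offset of 50. With the replicate block it was -0.27. Over all probes, 0 passed the threshold in either direction with all 6 arrays, the replicate block included (0 higher and 0 lower), and leaving out 1 array gave 0 to 1 higher (1 without phenolphthalein replicate 2 or 3) and 0 to 1 lower (1 without vehicle replicate 1 or phenolphthalein replicate 2). At an unadjusted p under 0.05, leaving out 1 array gave 1172 to 2064 higher and 1418 to 2116 lower, the fewest lower ones without vehicle replicate 3. The slide as a random block gave 1353 higher and 1663 lower. The replicate numbers share no stated batch, and the deviations of same-numbered arrays correlated at -0.00852, -0.00914 and 0.0431. The replicate block changed no call and gave 1699 higher and 2005 lower at the unadjusted p. Dim probes limit the size of the Armcx6 difference.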
